A study of Mus musculus with 21 samples.

Results

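The regions described here are 1402 3′ intervals of the mouse genome (mm39) in which at least 20% of the reads carried a T>C conversion in a heart that lacked the labelling enzyme. They were chosen from 208307 deposited intervals. Of intervals overlapping on 1 strand the most read was kept, which left 120310, and intervals on the mitochondrial chromosome and in 1 short stretch of chromosome 2 were set aside, which left 120287. Of these, 19288 had at least 50 reads in at least 1 library without Uprt. A member had a T>C share, the percentage of its reads with a T>C conversion, of at least 20% in such a library, and 1402 intervals (7.27% of the 19288) did. The rule also caught 3 mitochondrial intervals and 4 in the chromosome 2 stretch, which are not described.

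The libraries came from the left ventricular free wall of 21 mice, 1 per mouse. All mice carried Myh6MCM Tg/0, a tamoxifen-inducible Cre driven by a cardiomyocyte promoter, received tamoxifen at 6 to 8 weeks of age on 4 days, were given 4-thiouracil 2 weeks later and were killed after 6 hours. By the labels the groups differ in Lmna, in Uprt and in sex. There were 8 Lmna +/+ mice with Uprt Tg/0 (4 females), 6 Lmna F/F mice with Uprt Tg/0 (4 females), 4 Lmna F/F mice without Uprt (2 females) and 3 males with Lmna +/+ and no Uprt. F is the floxed allele of Lmna, the gene of the nuclear envelope proteins lamin A and C. Replicates are numbered within a group and have no order. The libraries held 25947354 to 50951618 reads on kept intervals, and members took 1.83% to 2.52% of a library's reads but 7.31% to 15.01% of its T>C reads. Markers of the heart were not checked, since the transcript IDs could not be paired with gene names, and members are named by position.

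Uracil phosphoribosyltransferase, Uprt, joins 4-thiouracil to ribose phosphate so that cells carrying the enzyme build it into new RNA. Iodoacetamide alkylates the thiol, and reverse transcription then reads the base as C, so that labelled RNA is scored by T>C mismatches to the reference. A T-to-C difference between a mouse's genome and the reference gives the same mismatch in the reads of that allele that cover the position, whether or not the RNA is new, and inbred strains and their crosses carry many such differences in blocks along chromosomes.

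Members were found on every chromosome with 20 or more eligible intervals, at similar rates. Chromosome 2 held the most, 134 of 1507 eligible intervals (8.89%), followed by chromosome 1 with 111 of 1260 (8.81%). The lowest rate among autosomes was that of chromosome 16, with 40 of 691 (5.79%). The Y chromosome held 2 of 20. The rate moved more with read depth than with chromosome. Intervals with a median of 50 to 99 reads per library were members in 370 of 3208 cases (11.5%), and those with 1000 reads or more in 110 of 3209 (3.43%). Below 50 reads the rate was 313 of 3853 (8.12%), so it did not fall steadily with depth. At the rule's minimum, 10 T>C reads of 50, the exact 95% binomial interval of a share runs from 10.0% to 33.7%, which covers counting error only. Members had a median of 103.5 reads per library (quartiles 53.0 and 264.75), against 189.0 for the other eligible intervals.

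**Figure D1:**
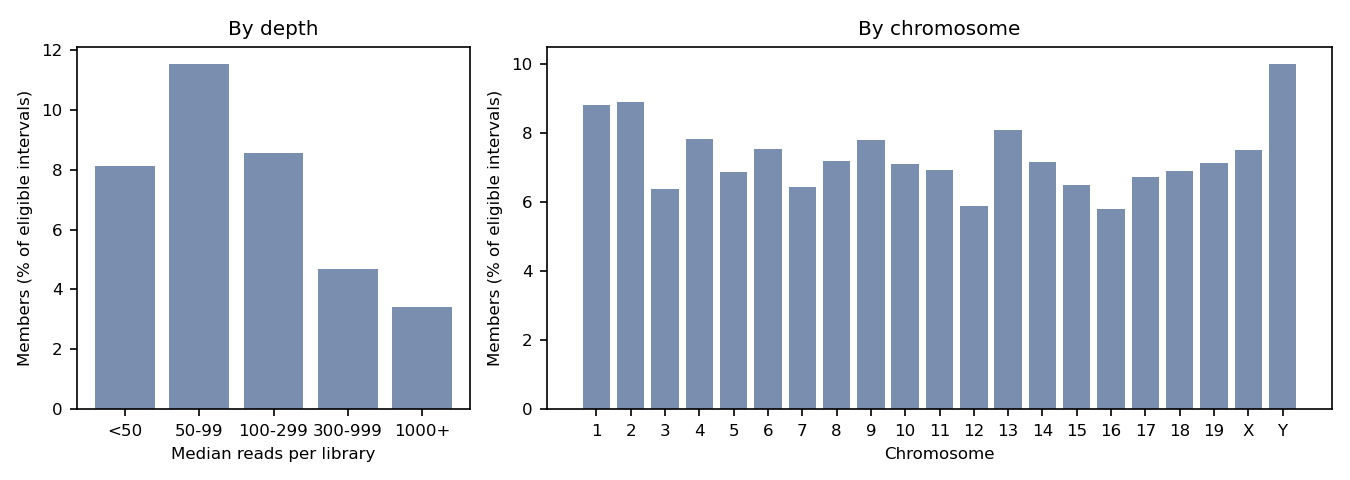
Members as a percentage of eligible intervals, by the median reads per library of the interval (left) and by chromosome (right, chromosomes with at least 20 eligible intervals). The rate is 8.12% under 50 reads, 11.5% at 50 to 99 reads and 3.43% at 1000 or more, and lies between 5.79% and 8.89% on the autosomes.

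The 3 members taken as nearest the threshold all sat at 20% in the library that admitted them, with ties taken in order of position. These were chr1:15913307-15914276, chr1:38088098-38088174 and chr1:39940669-39941616. The nearest intervals outside were chr8:88983904-88986344 at 19.97%, chr4:41480563-41480926 at 19.95% and chr2:119485927-119486123 at 19.94%. The chromosome 8 interval lay between 11.5% and 27.4% in all 21 libraries with at least 605 reads in each, so the threshold cuts through intervals of like share.

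Shares rarely neared 100%. Over the 9491 values of members with at least 20 reads in libraries without Uprt, 36.5% were under 10%, 47.6% lay from 10% to under 35%, 13.3% from 35% to under 65%, 2.42% from 65% to under 90%, and 0.137% at 90% or above. In the mice with Uprt, which the rule did not use, the corresponding percentages of 18550 values were 29.8%, 50.02%, 17.4%, 2.59% and 0.183%. Of the 1402 members, 678 passed in 1 of the 7 libraries without Uprt and 111 in all 7. In the mice with Uprt, 1122 members (80.03%) reached 20% with 50 reads in at least 1 library, against 3323 of 17886 other eligible intervals (18.6%). Among intervals with 50 reads in all 14 Uprt libraries, 117 of 685 members (17.1%) reached 20% in all 14, against 1 of 11154 others (0.00897%). Members with a median of at least 300 reads did so in 74 of 307 cases, and 41 of the 307 reached 20% in none of the 14.

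Kinds of member were separated by how the shares fell over the libraries. An always-high member had at least 20% in every library with 20 reads, and there were 96, of which 83 had 20 reads in all 21 libraries. A split member, a class defined after the shares had been seen, had 50 reads in at least 18 libraries and a widest gap between neighbouring shares of at least 10 points that also spanned 50 percent or more of the range. Of 873 members with that depth 120 (13.7%) were split. Of 12602 other intervals 141 (1.12%) were, and in 133 of these the upper libraries all carried Uprt; since the rule asks for a high library without Uprt in members and bars one in the others, the percentages are not comparable. Of all members, 1 was both always-high and split. The 1187 in neither class had a median of 86.0 reads per library.

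The always-high members were, by definition, high with and without Uprt. The most read was chr7:110666957-110671898 on the minus strand, with shares of 22.7%, 23.4% and 21.8% in the Lmna +/+ mice without Uprt and 20.7%, 21.4%, 21.7% and 23.8% in the Lmna F/F mice without Uprt. With Uprt its shares ran from 24.0% to 28.7% (median 27.0%) in Lmna +/+ and from 25.3% to 29.6% (median 26.5%) in Lmna F/F. Every library with Uprt lay above every library without it, by a narrow margin. The next, chr13:58538956-58540256 (minus strand), ran from 27.7% to 41.8% over all libraries, and 59.3% of its reads were multimapped. The third, chr3:119503165-119503510 (plus strand), ran from 27.3% to 46.1%, with 24.8% of reads multimapped. At chr19:9193745-9194324 (plus strand) the range was 24.6% to 30.1%, 98.9% of reads were multimapped, and only 0.0413 conversions per T>C read fell inside the interval. At chr1:131856901-131857809 (plus strand) the range was 45.9% to 63.2%, with 0.0187% of reads multimapped and 2.17 conversions per T>C read. All 5 were high in every library but differed in mapping and in conversions per T>C read.

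The 120 split members had 2 well separated levels. The median library on the lower side had a share of 2.73% (quartiles of the members' medians 1.50% and 4.50%), and that on the upper side 38.3% (29.2% and 50.9%). No member had an upper-side median of 90% or more, and 20 exceeded 60%. In 32 split members 1 library alone was on the upper side, a library without Uprt in 29 of them, which the rule favours. In 62 members at least 3 libraries stood on each side, and of these 60 had an upper library among the mice with Uprt. The 62 lay on 19 chromosomes, with 6 each on chromosomes 2, 4, 8 and 9.

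The deepest split member shows the pattern. At chr2:90966588-90966855 (plus strand; 40703 to 116633 reads per library) the share was 0.860%, 43.2% and 0.863% in the Lmna +/+ mice without Uprt and 42.6%, 41.0%, 1.08% and 43.0% in the Lmna F/F mice without Uprt. In the Lmna +/+ mice with Uprt it was 1.93%, 1.16%, 43.6%, 41.8%, 42.3%, 41.3%, 42.7% and 41.2%. In the Lmna F/F mice with Uprt it was 1.62%, 42.9%, 43.1%, 43.5%, 43.2% and 42.9%. No library lay between 1.93% and 41.0%, and both levels occurred in each of the 4 groups. A higher upper level was seen at chr19:37772714-37774032 (plus strand), where 12 libraries lay between 66.7% and 74.1% and 9 at no more than 15%. A lower one was seen at chr1:171062422-171062618 (minus strand), where upper libraries lay between 20.7% and 23.2% and the others between 3.78% and 5.23%.

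**Figure D2:**
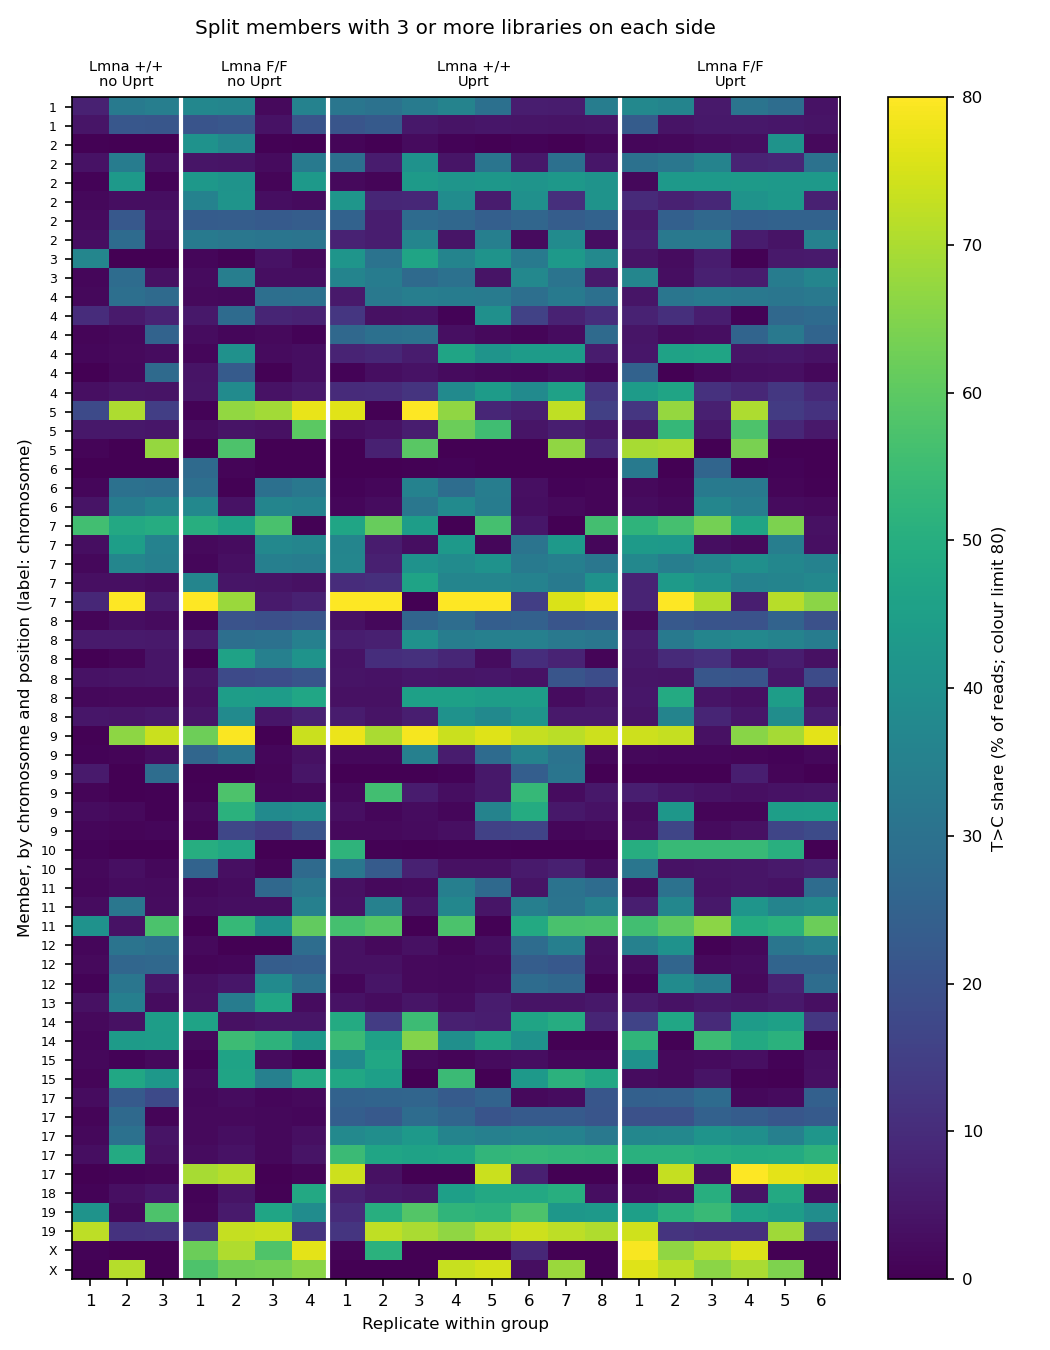
T>C share in percent (colour) of the 62 split members with 3 or more libraries on each side (lines, in order of chromosome and position) in 21 libraries (columns, by group and replicate). Most members are high in some and low in other libraries of one group, and the 3 adjacent chromosome 17 members are high in all 14 Uprt libraries and in 1 library without Uprt.

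Mice of 1 group often stood on different sides. None of the 62 was split exactly by Lmna genotype over the 21 libraries. A split with all Uprt libraries high and all others low is barred by the rule. Both sides occurred among the 8 Lmna +/+ Uprt mice for 52 of the 62 and among the 6 Lmna F/F Uprt mice for 49. A library was on the upper side at 8.06% (Lmna +/+ no Uprt replicate 1, 5 of 62 members) to 62.9% (Lmna F/F Uprt replicate 2, 39 of 62). Pairs of libraries from 1 group stood on the same side for a median of 62.0% of members (range 45.9% to 78.7%, 52 pairs), and pairs from different groups for 54.9% (31.7% to 75%, 158 pairs). The ranges overlap. Litters and parents are not given in the labels.

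Some members close together had the same libraries on each side. Of 9 pairs of such members within 1 Mb, 4 had every library on the same side, 3 of them formed by the same 3 members of chromosome 17, and the median was 76.2% of libraries. Farther apart on a chromosome the median was 54.8% at 1 to 5 Mb (6 pairs), 60.2% at 5 to 20 Mb (30 pairs) and 59.5% beyond (54 pairs), with no steady fall with distance. Over 1792 pairs on different chromosomes the median was 52.4%, the highest 90.5%, and no pair was identical. Pairs share libraries and members, so these are descriptions. The identical pairs within 5 Mb were 3 on chromosome 17, chr9:106072150-106072524 with chr9:106347521-106348431, and chr8:71320871-71321084 with chr8:73339931-73341126. At 5 to 20 Mb 1 pair was identical, chr6:129401735-129405956 with chr6:136849433-136849641, 7447698 bases apart. For the chromosome 8 pair the upper libraries ran from 19.5% to 28.7% at the first and from 29.1% to 40.6% at the second member, and the lower ones did not exceed 3.58% and 7.13%. In both, Lmna F/F Uprt replicate 1 and Lmna +/+ Uprt replicates 1 and 2 were the only Uprt libraries on the lower side. Neighbours could also differ, as at 5274 bases on chromosome 1, where 2 members agreed in 14 of 21 libraries.

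**Figure D3:**
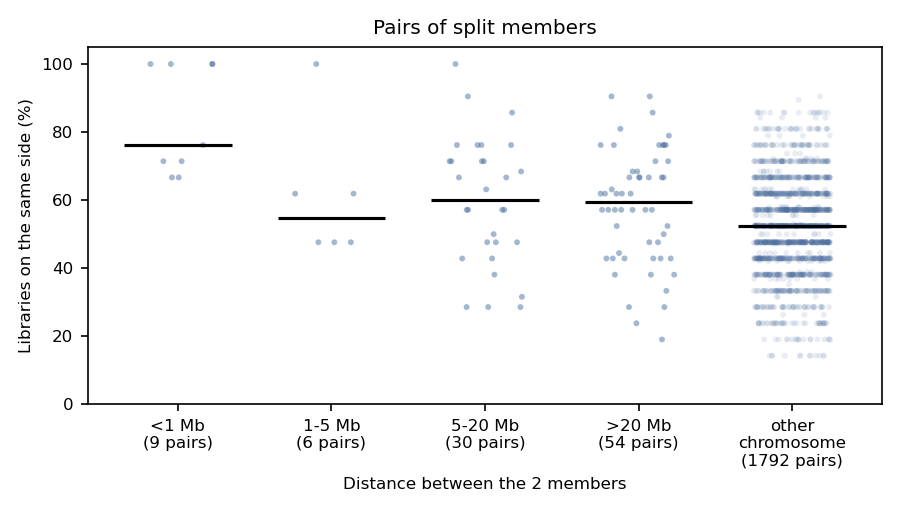
Percentage of libraries in which both members of a pair of split members stood on the same side (vertical axis), by the distance between them; points are pairs and lines medians. The median is 76.2% within 1 Mb, 54.8% to 60.2% farther apart on a chromosome and 52.4% between chromosomes.

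A second description used correlation. A block was a run of members, not always-high, with neighbours within 5 Mb and shares correlated at r of at least 0.8 over at least 15 libraries with 20 reads. There were 18 blocks holding 41 of 1306 such members, 15 of them pairs. The largest, chr17:34147126-34836317, held 5 members, and the next were chr10:84362169-85887735 and chr9:104941976-106348431 with 3 each. Blocks with the same number of members were ordered by span, so the pairs among the 8 largest blocks were those spanning farthest. The most read members of these 8 blocks had ranges of unequal width. That on chromosome 6, chr6:136849433-136849641 (minus strand; 6521 to 42631 reads), had upper libraries between 31.8% and 38.4% and lower ones between 1.14% and 4.20%. The chromosome 10 block's chr10:84362169-84363333 ran from 1.05% to 31.7%, and chr10:79812952-79813252 from 0% to 30.1%. At chr12:21373473-21373820 shares ran from 0% to 25.2%, at chr2:146081799-146086955 from 10.7% to 29.5%, and at chr1:150300490-150300561 from 2.27% to 76.2%. Of these, the chromosome 6 member and chr10:84362169-84363333 were split by the definition above and the other 4 were not.

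The chromosome 17 block, within the stretch that holds the major histocompatibility complex, held 3 split members that were on the upper side in all 14 Uprt libraries. At chr17:34501718-34501997 (minus strand) shares in the Lmna +/+ mice without Uprt were 2.88%, 48.9% and 3.53%, and in the Lmna F/F mice without Uprt 2.79%, 3.95%, 1.77% and 4.27%. With Uprt they ran from 46.0% to 54.5% (median 52.4%) in Lmna +/+ and from 48.5% to 51.8% (median 50.1%) in Lmna F/F. The split members chr17:34147126-34148265 and chr17:34488069-34488368 had the same libraries on each side. The library without Uprt on the upper side, Lmna +/+ no Uprt replicate 2, stood at the Uprt level at the first (27.4% against 19.7% to 28.3%) and just under it at the second (29.95% against 32.4% to 42.9%). Uprt and anything else that these 14 mice share cannot be told apart at these members.

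**Figure D4:**
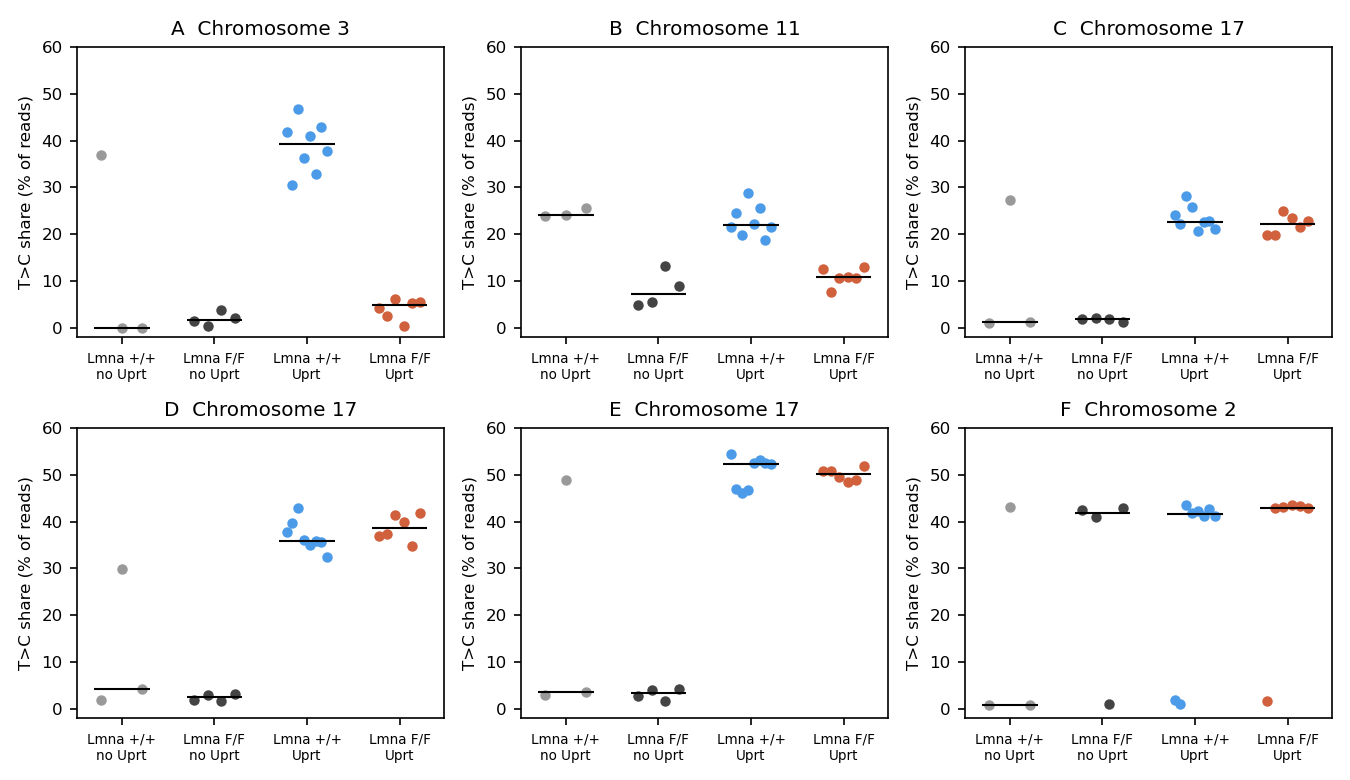
T>C share in percent of reads of 6 members by group, 1 point per mouse and a line at the group median. A is chr3:89156174-89156447, B chr11:94842446-94843868, C to E the 3 split members of chromosome 17 in order of position, and F chr2:90966588-90966855; A and B do not overlap between the Lmna genotypes with Uprt, and in F both levels occur in each group.

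All 14 Uprt libraries lay above all 7 others at 1679 of 17336 intervals with 10 reads in every library (9.69%), and at 4 of 1236 members (0.324%); the rule used the libraries without Uprt, so nothing is read from this count. The 4 were the chromosome 7 member above, chr17:34488069-34488368, chr7:89603868-89604271 (39.8% to 61.3% with Uprt, 25.3% to 39.8% without) and chr9:107650766-107651006 (20.2% to 33.2% against 11.3% to 20%).

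Between Lmna genotypes with Uprt, the share test called 2 of 1250 members, both lower in Lmna F/F (0.16%). Of 16374 intervals it called 0.0122% higher and 0.0122% lower. The median log2 odds ratio was -0.03 over the members and 0.05 over all intervals tested. At chr3:89156174-89156447 (plus strand), on the chromosome that carries Lmna, shares in the Lmna +/+ Uprt mice were 41.9%, 30.6%, 46.8%, 36.2%, 40.9%, 33.0%, 43.0% and 37.7%. In the Lmna F/F Uprt mice they were 4.17%, 2.50%, 6.13%, 0.450%, 5.43% and 5.65%. On the log2 scale the odds of a T>C read changed by -4.04 ± 0.52 (SE; adjusted p = 0.00305 in edgeR). Without Uprt the Lmna F/F mice had 1.52%, 0.420%, 3.76% and 2.02%, and the Lmna +/+ mice 36.8%, 0% and 0%, so 2 Lmna +/+ mice were low as well; the 36.8% chose the member. All reads there did not pass (log2 change 0.30 ± 0.22 SE, edgeR adjusted p = 0.54). Lmna genotype and any sequence inherited along with it on chromosome 3 cannot be told apart at this member.

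At chr11:94842446-94843868 (plus strand) the difference was graded. Shares ran from 18.7% to 28.8% (median 21.9%) in Lmna +/+ Uprt mice and from 7.69% to 13.02% (median 10.8%) in Lmna F/F Uprt mice, and the odds changed by -1.23 ± 0.16 on the log2 scale (SE; adjusted p = 0.00305 in edgeR). All reads rose, from 61.3 ± 10.2 to 125.3 ± 25.1 CPM (SD, n = 8 and 6; log2 change 1.02 ± 0.12 SE, edgeR adjusted p = 2.13e-05), and the T>C reads differed by 0.01 ± 0.15 on the log2 scale (SE; adjusted p = 0.995). Without Uprt the shares were 24.0%, 24.2% and 25.5% in Lmna +/+ and 4.97%, 5.61%, 13.2% and 8.96% in Lmna F/F. The member was chosen through those Lmna +/+ values, so they are a description and lend no support. In bulk tissue, a change in the number of cells of a type and one in RNA per cell cannot be told apart. Shares did not overlap between the genotypes at 4 of 1256 members, all lower in Lmna F/F; of 17738 intervals 0.0226% were so separated upward and 0.0451% downward. Beside these 2 they were chr18:50267793-50268667 (18.9% to 23.9% against 26.8% to 33.3%) and chr5:117411900-117413282 (15.9% to 22.3% against 25.6% to 40.6%), which the test did not call.

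T>C reads, scaled by library, were called at 6 members higher and 4 lower in Lmna F/F of 987 tested (0.608% and 0.405%), against 0.414% higher and 0.0675% lower of 10378 intervals. Of the lower 4, chr3:89156174-89156447 fell by 2.91 ± 0.43 (log2, SE; adjusted p = 0.00147). At chr15:78043663-78043809 (minus strand) shares in the Lmna F/F Uprt mice were 2.75%, 2.04%, 4.35%, 0.581%, 0% and 3.16%. In the Lmna +/+ Uprt mice they were 47.7%, 45.1%, 0%, 54.5%, 0%, 42.9%, 51.5% and 47.9%. The groups overlap, and 3 of 4 Lmna F/F mice without Uprt stood at 34.8% to 48.3%. Its T>C reads fell by 4.18 ± 0.89 (edgeR adjusted p = 0.0346), a call lost when any 1 of the 6 Lmna F/F Uprt libraries was left out. It held in 8 of 20 alternatives, and in those outside these 8 and 6 the member had no value. At chr9:37449079-37449615 (plus strand) all 6 Lmna F/F Uprt mice lay between 0.917% and 1.84%, the Lmna +/+ Uprt mice between 1.58% and 35.9%, and 2 Lmna F/F mice without Uprt at 26.4% and 31.0%; T>C reads fell by 3.92 ± 0.75 (adjusted p = 0.0129), a call lost without Lmna F/F Uprt replicate 5 or Lmna +/+ Uprt replicate 7. At chr3:96128863-96131054 they fell by 2.88 ± 0.59 (adjusted p = 0.0234), a call lost without Lmna +/+ Uprt replicate 1 or 8 or Lmna F/F Uprt replicate 1 or 4.

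The 6 members whose T>C reads rose in Lmna F/F also rose in all reads. At chr9:123906844-123909544 (plus strand) the level was 1.33 ± 0.84 CPM in Lmna +/+ Uprt and 9.22 ± 2.52 CPM in Lmna F/F Uprt mice (SD, n = 8 and 6), a log2 change of 2.82 ± 0.32 (SE; edgeR adjusted p = 9.57e-06) in all reads, and T>C reads rose by 3.41 ± 0.58 (adjusted p = 0.00559). At chr8:71082043-71082192 (minus strand) all reads rose by 2.36 ± 0.30 (adjusted p = 4.06e-05) and at chr7:126298945-126299052 (minus strand) by 1.98 ± 0.17 (adjusted p = 4.01e-07). The others were chr4:43977624-43979118, chr6:129438554-129440003 and chr17:34488069-34488368, with changes of 1.06, 1.81 and 0.97 in all reads. The T>C read call was lost on chromosome 4 without Lmna F/F Uprt replicate 3 or 5, on chromosome 6 without replicate 1 or 2, and on chromosome 17 without replicate 1. The share test called none of the 6.

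All reads were called higher in Lmna F/F at 47 of 1398 members (3.36%) and lower at 14 (1.00%), near the 3.08% and 1.50% of 25457 intervals. The median log2 change was -0.03 over members and -0.02 over all intervals. Scaling by library size alone moved the median of all intervals to 0.15 and the split of members to 88 higher and 2 lower. The number of lower calls in members moved when single libraries were left out. It was 3 without Lmna F/F Uprt replicate 1 or 2, 4 without replicate 5, 5 without replicate 4 and 7 without replicate 3. Without Lmna +/+ Uprt replicate 4 it was 5, without replicate 6 it was 9, and without replicate 3 it was 15. Over all intervals the lower calls moved as well, from 381 to 184 without Lmna F/F Uprt replicate 1 and 160 without replicate 2. Without Lmna +/+ Uprt replicate 4 they numbered 253, and without replicate 3 they numbered 504. The total was 37 without Lmna F/F Uprt replicate 1 and 40 without replicate 2. The largest changes upward were at chr3:66132627-66133226 (3.2 ± 0.76 SE, adjusted p = 0.016; 2.04 and not called without the sex term) and chr9:119877749-119880335 (2.88 ± 0.27, adjusted p = 8.58e-07; 2.00 ± 1.20 against 14.7 ± 2.30 CPM, SD), then the chromosome 9 and 8 members above and chr7:143188545-143192087 (2.08). Those downward were chr9:75193693-75194880 (-1.96), chr5:121887142-121887246 (-1.70), chr19:47874457-47874747 (-0.75), chr14:69275953-69279253 (-0.55) and chr8:95580778-95581523 (-0.44), of which the last 3 lost their call under library-size scaling. The first lost its call without the sex term. The chromosome 5 call was lost in 7 of 20 alternatives and the chromosome 19 call in 12 of 20, mostly with 1 library left out. The chromosome 14 and 8 members were split: at chr8:95580778-95581523 upper libraries lay between 44.3% and 48.8% and lower ones between 1.73% and 4.79%.

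Conversions per T>C read were counted inside the interval in the mice with Uprt. The median was 1.05 in members and in other eligible intervals, but the spread differed. At least 1.5 conversions per T>C read were found in 236 of 1379 members with 20 T>C reads (17.1%), against 254 of 15727 others (1.62%). Under 0.5 were 106 members (7.69%) against 3.23%, and where the other conversions of such reads lay was not tested. Among always-high members, 32 (33.7%) of 95 had at least 1.5 and 18 (18.9%) under 0.5. Among split members these were 11 (9.17%) and 5 (4.17%) of 120. From 0.9 to 1.1, close to a single conversion, lay 77 split members (64.2%), 48.1% of all members and 60.7% of other intervals. Reads were mostly multimapped in 51 members (3.64%) and 3.35% of others. Members were shorter, with a median of 466.5 bases against 848.5, and had a like density of T positions, 26.7 against 27.6 per 100 bases.

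The 5 members with most conversions per T>C read had 4.14 to 5.07. At chr11:116273576-116274031 (plus strand; 5.07 conversions) shares ran from 63.1% to 72.6% without Uprt and from 58.9% to 80.2% with it. At chr2:142907096-142907268 (plus strand; 4.14) they ran from 56.5% to 74.3% and from 62.0% to 78.9%. Both were always-high. The others, chr9:57662535-57662628 (4.46), chr8:72928370-72928447 (4.42) and chr18:32219326-32220205 (4.24), were not, and the first 2 had medians of 72 and 37 reads per library.

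**Figure D5:**
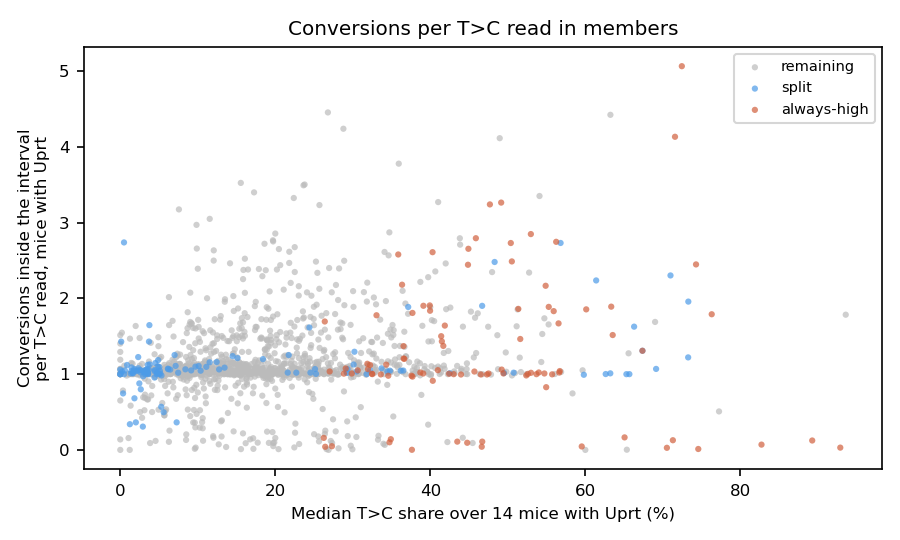
Conversions inside the interval per T>C read (vertical axis) against the median T>C share in percent over the 14 mice with Uprt (horizontal axis), 1 point per member with at least 20 T>C reads in those mice. From 0.9 to 1.1 conversions lie 663 of 1379 members, and 32 of 95 always-high members lie at 1.5 or above.

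Of all members, 6 lay within 100 bases of another on the same strand and 116 shared a transcript ID with another member, so members are not independent of each other.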

How the data were processed

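One library per mouse was made from left ventricular RNA (1.5 µg, alkylated in 12 mM iodoacetamide) with a QuantSeq 3′ kit and read as 100 single-end bases, per the labels' protocols. The deposited values are counts per interval and library, per the file headers: reads, T>C reads, multimapped reads and T>C conversions over T positions. Coordinates follow mm39 (per the submitters' processing notes). No source used here gives the aligner settings, the annotation release or any filter on variants. A T>C read can have its conversion outside the interval.

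Overlapping intervals were reduced within connected groups. edgeR 4.0.16 (R 4.3.3; glmQLFit and glmQLFTest, Lmna genotype and sex, 14 mice with Uprt, filterByExpr minimum count 10, TMM) tested all reads and T>C reads; the share test compared T>C with other reads, with an effect for each library, at intervals with 10 reads in every library and 20 T>C reads over the 14. Calls have a Benjamini-Hochberg adjusted p under 0.05 over all intervals, and SE is the change over the square root of F. Alternatives were DESeq2 1.42.0 and, for shares, a quasi-binomial model with limma 3.58.1 moderation. Scripts were tested on simulated data. Replicates are separate mice.

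Members, lists and tests were chosen with earlier results of these data known. Named members are those called in the share test, the most read of the 8 largest blocks, the 5 most read always-high, the 5 with most conversions per T>C read, up to 5 per direction called in reads or T>C reads, and 3 on each side of the threshold. Added after the shares were seen were the 10 most read split members with 3 libraries on each side and identical pairs within 5 Mb, not all of them printed. Cell type markers could not be run without gene names.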

Additional observations from a re-analysis of the deposited data

Results flagged for a closer look

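Among 141 groups of 4 to 8 values tested for a sample far from the others (Dixon's criterion at its 95% level, which chance alone would meet in about 1 of 20), 20 met it. Most of the flagged values are shares of split members, a class defined by a wide gap between libraries, and some are from libraries that the rule used. The count of 20 therefore cannot be set against that chance rate. No explanation was tested. Lmna F/F Uprt replicate 1 stood apart from its group in the T>C share at chr10:84362169-84363333 (31.6%), chr10:79812952-79813252 (23.2%), chr2:90966588-90966855 (1.62%), chr1:171062422-171062618 (23.2%), chr2:119919656-119921628 (5.35%), chr8:73339931-73341126 (6.21%), chr4:99843962-99844491 (4.5%) and chr8:71320871-71321084 (1.98%). Lmna F/F no Uprt replicate 2 stood apart from its group in the T>C share at chr6:136849433-136849641 (4.06%). Lmna F/F Uprt replicate 6 stood apart from its group in the T>C share at chr1:150300490-150300561 (4.44%). Lmna F/F no Uprt replicate 1 stood apart from its group in the T>C share at chr2:142907096-142907268 (56.5%), chr8:95580778-95581523 (3.22%), chr8:85700715-85701463 (4.07%) and chr8:71320871-71321084 (0.817%). Lmna F/F no Uprt replicate 3 stood apart from its group in the T>C share at chr2:90966588-90966855 (1.08%) and chr1:171062422-171062618 (3.78%). Lmna +/+ Uprt replicate 2 stood apart from its group in the T>C share at chr2:119919656-119921628 (6.33%). Lmna +/+ Uprt replicate 1 stood apart from its group in the T>C share at chr19:37772714-37774032 (12.5%) and chr4:99843962-99844491 (5.35%). Lmna F/F Uprt replicate 5 stood apart in the percentage of members with 50 reads that reached 20%, at 53.0%, where the other 5 libraries of its group lay between 43.8% and 45.7%.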

How the results depend on the processing

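The share test called 2 members, 4 under the quasi-binomial model (1 higher, 3 lower) and 1 without chromosome 3, from which the chromosome 3 member is absent; leaving out 1 library gave 2 to 3. All reads gave 61 calls, 53 to 90 under the other settings and 37 to 63 with 1 library left out, the lowest without Lmna F/F Uprt replicate 1 (37) and replicate 2 (40). T>C reads gave 10 calls, 16 with DESeq2, 54 with no low-count filter and 7 to 11 with 1 library left out. Blocks numbered 18, but 10 at r of at least 0.9. The count of members whose shares do not overlap between Lmna genotypes with Uprt (4) did not move at a minimum of 30 reads, nor did the median conversions per T>C read (1.05) without adjoining members. Split members numbered 120, and 109 or 88 with a gap of at least 15 or 20 points. No named call changed direction in any alternative run. Where a count moved, the cause was not tested. No paired analysis was possible because the labels give no replicate numbers. For the remaining members, with a median of 86.0 reads per library, counting error limits how finely shares can be compared.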
